A study of Mus musculus with 24 samples.

Results

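The genes described here build the cornified envelope and the epidermal barrier, and they were followed across 24 mammary tumors by the diet of the mouse and by early or late tumor onset. Members were the array probes, leaving out control spots, whose gene name was an Sprr or Lce gene with a number, or 1 of a written list: Ivl, Lor, Flg, Flg2, Hrnr, Krtdap, Sbsn, Dmkn, Asprv1, Calm4, Tgm1, Tgm3, Tgm5, Dsg1a, Dsc1, Cdsn, Klk5, Klk7, Alox12b, Aloxe3, Evpl, Ppl, Cnfn and Casp14. The rule found 65 of 39429 probes, for 56 of 30119 genes, and 49 of the 56 genes had a probe bright enough to test. All tumors arose in female BALB/c mice given the carcinogen DMBA, and each tumor was set on its own 2-color Agilent array against 1 common reference RNA pooled from 11 mouse cell lines. The diets were high in saturated animal fat (HFD) or low in fat (LFD), kept throughout, or switched in young adulthood from 1 to the other (HFD-LFD and LFD-HFD). There were 3 early and 6 late HFD tumors, 3 early and 3 late HFD-LFD tumors, 5 late LFD tumors and 4 late LFD-HFD tumors. Early tumors therefore came only from mice that ate HFD through puberty, and no mouse was without DMBA. The labels name each tumor separately and pair none of them, and p-values measure the spread between these tumors.

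Keratinocytes near the skin surface replace their plasma membrane with the cornified envelope, a sheet of proteins that transglutaminases weld together and to which lipids are bound. Involucrin, envoplakin and periplakin form its first scaffold, loricrin, small proline-rich proteins and late cornified envelope proteins reinforce it, and filaggrin packs the keratin filaments inside the cell. Mammary epithelium does not normally cornify, but mammary tumors with squamous differentiation can express these genes.

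On 24 of 24 arrays the labels place the tumor in Cy5 and the reference in Cy3, which is the opposite of the dye assignment in the study's methods. The reference was the same RNA throughout, and the signals followed the labels: for 57 member probes the SD from array to array had a median of 2.10 log2 units in Cy5 and of 0.223 in Cy3, and Cy5 varied more for 57 of 57. Values are therefore log2 ratios of tumor to reference, with 0 where both were equally bright, and levels of different genes are not set against each other. On single arrays, 65.7% to 89.1% of probes stood well above background in Cy5. On 7 arrays of slides 6 and 7, all of late tumors, 18.3% to 22.6% of spots lay in rows where Cy5 was dimmed. Those spots were treated as missing, which removed values for 16 of 49 members on some of these arrays and left 33 members with all 24 values. No member spot was saturated.

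The member genes varied far more between tumors than most genes did. Their median SD within the diet and onset groups was 1.83 log2 units against 0.316 over all 20936 genes tested, and 45 of 49 members lay in the top 5% of genes by this SD. The tumor labelled MSU_86, a late HFD tumor, stood apart: it had the highest ratio for 44 of 49 members, and its median over the members was 5.27 log2 units above each member's own median. The exceptions in ratio were Asprv1, Klk7, Sprr1a, Sprr2a2 and Sprr2h. For Sprr1a and Sprr2h, MSU_86 still had the highest tumor signal, 17.51 and 15.89 on a quantile-scaled log2 scale. Its reference signal was the highest for them too, at 13.23 and 11.29. Next came the late HFD-LFD tumor MSU_59b, with a median of 3.87, and the late LFD tumor MSU_137, with 2.63. Of the early tumors, MSU_97, MSU_62b, MSU_51, MSU_768 and MSU_54 had medians of 2.49, 2.16, 2.08, 1.59 and 1.26, and MSU_163 had -0.40. The 4 late LFD-HFD tumors lay between -0.57 and -0.18. Medians above 1 were thus found in 5 of 6 early tumors and in 3 late tumors, 1 each of HFD, HFD-LFD and LFD.

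**Figure D1:**
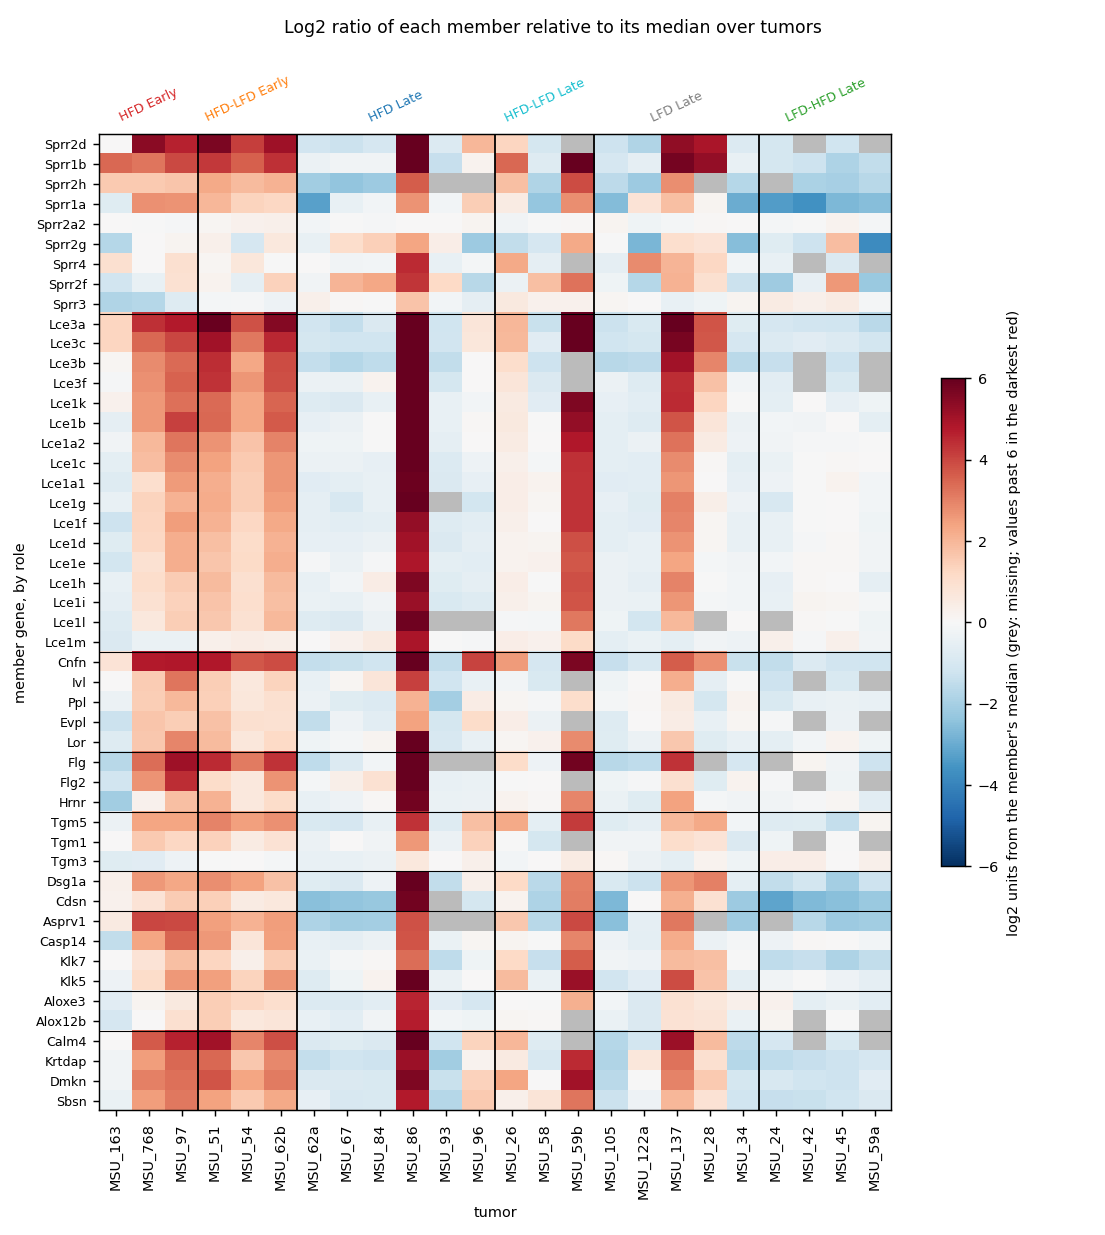
Each row is 1 of 49 member genes and each column 1 of 24 tumors, grouped by diet and onset, and the color is the log2 ratio minus that member's median over tumors, and grey marks a missing value. MSU_86 is high in nearly every row, MSU_59b and MSU_137 follow it among the late tumors, and the early tumor MSU_163 is not high in most rows.

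The promoters are shown for 3 members whose levels are described below: Sprr2d, the member with the largest difference between early and late tumors, Sprr3, the member that was lower in early tumors, and Lor, loricrin, the member with the 2nd widest lead of MSU_86 over the other tumors. Each line gives the 250 bases before the RefSeq start of the gene on GRCm38.p6, 5′ to 3′ on the gene's strand, and capitals mark TGANTCA and TATAAA. With G or C at N, TGANTCA gives the letters read by AP-1 factors, and any base at N was counted. TATAAA gives those of a TATA box. The Sprr2d window is chr3:92338890-92339139 on the plus strand, that of Sprr3 chr3:92458721-92458970 on the minus strand and that of Lor chr3:92083143-92083392 on the minus strand.
Sprr2d: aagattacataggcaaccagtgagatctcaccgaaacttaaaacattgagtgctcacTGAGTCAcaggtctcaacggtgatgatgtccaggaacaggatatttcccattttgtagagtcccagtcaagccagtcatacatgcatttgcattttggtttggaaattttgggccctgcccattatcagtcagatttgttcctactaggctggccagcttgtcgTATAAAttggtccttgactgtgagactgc
Sprr3: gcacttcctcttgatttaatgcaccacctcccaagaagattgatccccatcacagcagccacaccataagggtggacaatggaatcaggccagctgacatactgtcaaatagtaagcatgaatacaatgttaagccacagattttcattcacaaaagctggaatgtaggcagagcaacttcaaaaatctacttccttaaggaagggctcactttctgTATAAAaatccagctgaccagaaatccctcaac
Lor: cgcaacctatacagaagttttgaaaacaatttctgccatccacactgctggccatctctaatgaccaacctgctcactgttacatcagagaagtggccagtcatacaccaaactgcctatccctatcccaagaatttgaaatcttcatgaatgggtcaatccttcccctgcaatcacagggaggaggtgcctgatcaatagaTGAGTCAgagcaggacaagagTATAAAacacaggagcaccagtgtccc

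The TGANTCA match of Sprr2d began 193 bases before the start and that of Lor 48 bases before it, and the Sprr3 window held none. RefSeq promoters were found for 48 of 56 members, and 6 motifs were searched on both strands of these 250 bases, none of which overlaps another in its letters. TGANTCA was in 16 of 48 member windows (33.3%) against 6.87% of 27025 gene windows of the same length, and the 16 were those of Dmkn, Flg, Flg2, Ivl, Krtdap, Lor, Sbsn, Sprr1a, Sprr1b, Sprr2b, Sprr2d, Sprr2e, Sprr2f, Sprr2h, Sprr2i and Sprr2k. TATAAA was in 37.5% of member windows against 13.0%, and on the gene's own strand within 50 bases of the start in 35.4% against 2.88%. The other motifs were GGGTGTGG, in 8.33% of member windows against 3.19%, CCCGCC, in 18.8% against 32.6%, GGAAGT, in 29.2% against 20.0%, and TTGCGCAA, in 0 of 48 against 0.170%. Neither Cnfn nor Asprv1 held TGANTCA or TATAAA. Sprr2 and Lce genes are copies of one another with similar promoters, so these windows are not independent, and a match of letters is not a measured binding site.

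The first comparison asked whether members differed between 6 early and 18 late tumors. Sprr2d, Cnfn, Asprv1 and Ppl were higher in early tumors and Sprr3 was lower, by limma with a Benjamini-Hochberg adjusted p under 0.05 over all 20936 genes. These are 5 of 49 members, or 10.2%, against 17.7% of all genes called, so with all 24 tumors the share of members called was not above that of genes at large. Without MSU_86, 23 of 49 members (46.9%) were called against 19.3% of all genes. That late tumor was singled out by its high values of these same members. Leaving it out therefore favors their calls, and this share is no test of the members. With all 24 tumors, 8.16% of members were higher in early tumors against 6.84% of all genes, and 2.04% were lower against 10.9%. At an unadjusted p under 0.05, 20 members (40.8%) passed against 33.7% of all genes. The members differed from the rest in the size of the difference and of its error: their median difference was 1.27 log2 units against -0.059 over all genes, 44 of 49 were above 0 against 42.8% of all genes, and the median SE was 0.79 against 0.17. Members move together across tumors, so the count above 0 is not one of independent genes. It was also 44 of 49 between HFD and LFD tumors, where 0 members were called. In bulk tumor RNA, more cells of a type and more RNA per cell cannot be told apart.

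**Figure D2:**
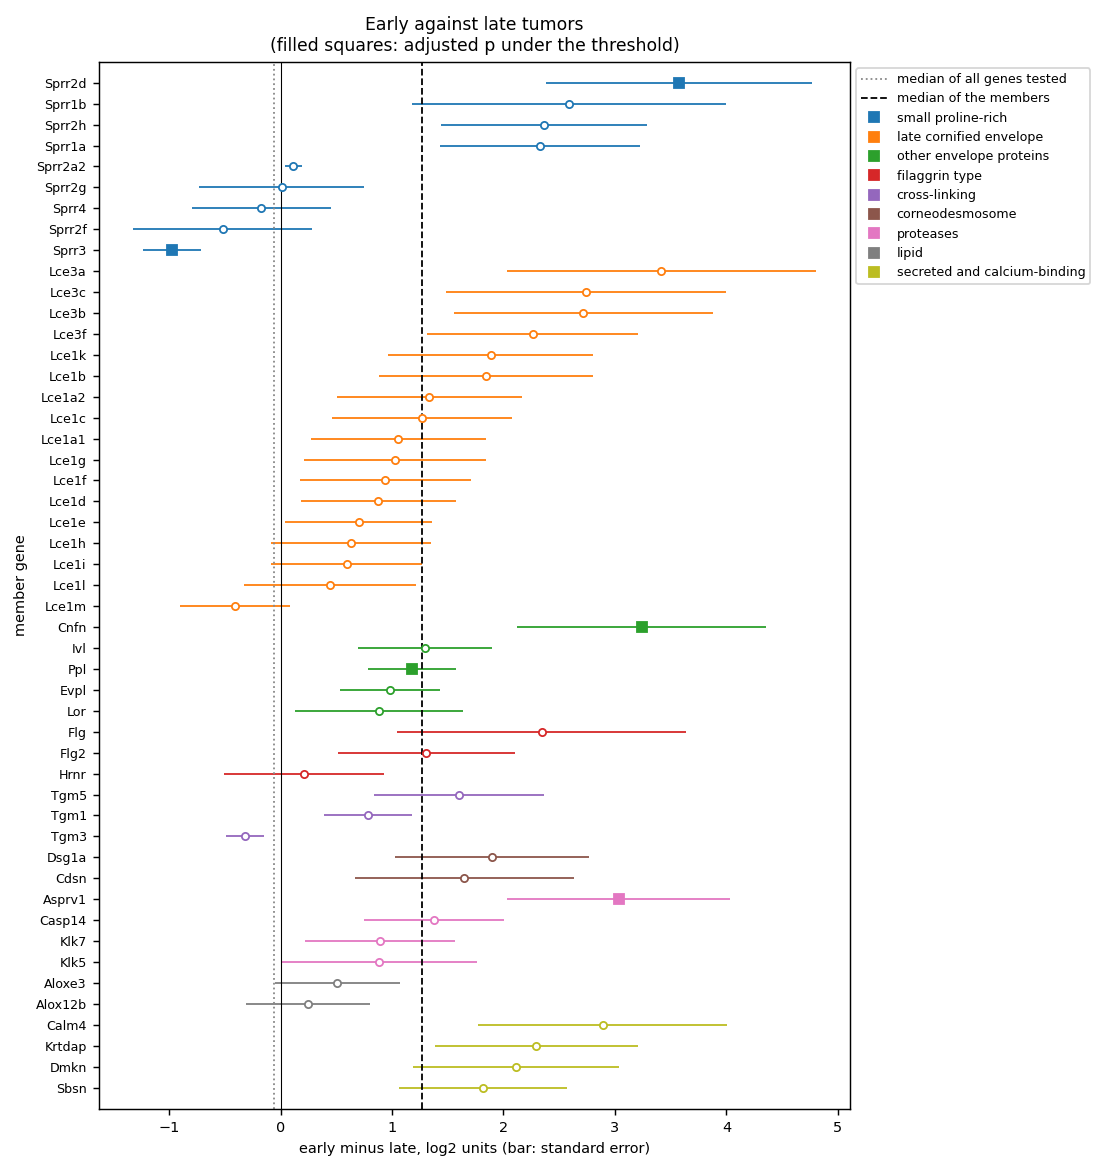
Points are the early minus late difference of each of 49 members in log2 units with its standard error, colored by role, and filled squares are the 5 members called by limma. Most differences lie to the right of 0, around the member median of 1.27, with errors that are wide beside those of other genes.

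Sprr2d encodes a small proline-rich protein, which bridges other envelope proteins, and its probe lies at chr3:92144721-92144780 (mm9, the build of the array's probe positions; exon or UTR was not looked up). Its log2 ratio was -2.14, 3.27 and 2.48 in the early HFD tumors (MSU_163, MSU_768 and MSU_97, the order kept below) and 3.50, 2.02 and 2.94 in the early HFD-LFD tumors (MSU_51, MSU_54 and MSU_62b), and in 15 late tumors it had a lowest value of -3.92, a median of -3.17 and a highest of 4.49. All early tumors but MSU_163 were above 2, all 6 were above the late median, and 3 late tumors were above the early median, so the groups overlapped. The difference was 3.57 log2 units (SE 1.20, 11.9-fold, adjusted p = 0.0427 by limma). MSU_59b, a late tumor with a median of 3.87 over the members it had values for, had no value for Sprr2d. The late values and the difference therefore leave it out. The same holds below for Alox12b, Calm4, Evpl, Flg2, Ivl, Lce3b, Lce3f, Sprr4 and Tgm1, which also had no value in MSU_59b. The Sprr2d call also depended on how dimmed rows were defined: with the definition tried first, the adjusted p by limma was 0.0579.

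Cnfn, cornifelin, another envelope protein (probe at chr7:26152727-26152786, mm9), had ratios of -2.39, 1.55 and 1.61 in early HFD tumors and 1.60, 0.52 and 0.71 in early HFD-LFD tumors. The 18 late tumors ranged from -4.69 to 2.90 with a median of -4.26. Every early tumor was above the late median, 12 late tumors were below the lowest early one, and 2 late tumors were above the early median. The difference was 3.24 (SE 1.11, 9.44-fold, adjusted p = 0.0454). Asprv1, the protease that cleaves profilaggrin (probe at chr6:86579351-86579410, mm9), had ratios of -2.63, 0.83 and 0.77 in early HFD tumors and of -0.73, -1.11 and -0.66 in early HFD-LFD tumors. In 14 late tumors the lowest was -5.71, the median -4.93 and the highest 0.80, and 10 late tumors lay below all early ones. The difference was 3.03 (SE 1.0, 8.19-fold, adjusted p = 0.0410).

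Ppl, periplakin, a plakin of the scaffold that also joins it to keratin filaments (probe at chr16:5086384-5086428, mm9), had ratios of -0.68, 1.14 and 1.59 in early HFD tumors and 1.11, 0.36 and 0.61 in early HFD-LFD tumors, against a range of -2.36 to 1.76 and a median of -0.58 in 18 late tumors. A single late tumor was above the early median. The difference was 1.18 (SE 0.39, 2.26-fold, adjusted p = 0.0396), smaller than that of Sprr2d, Cnfn or Asprv1 and with a smaller error. Sprr3, a small proline-rich gene of the same cluster as Sprr2d (probe at chr3:92260903-92260962, mm9), went the other way. Its ratios were -5.32, -5.23 and -4.28 in early HFD tumors and -3.66, -3.59 and -3.83 in early HFD-LFD tumors, and those of 18 late tumors ranged from -4.08 to -1.84 with a median of -3.37. All 6 early tumors lay below the median of the late ones, and 17 late tumors were above the early median. The difference was -0.97 (SE 0.26, 1.96-fold lower, adjusted p = 0.0127).

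**Figure D3:**
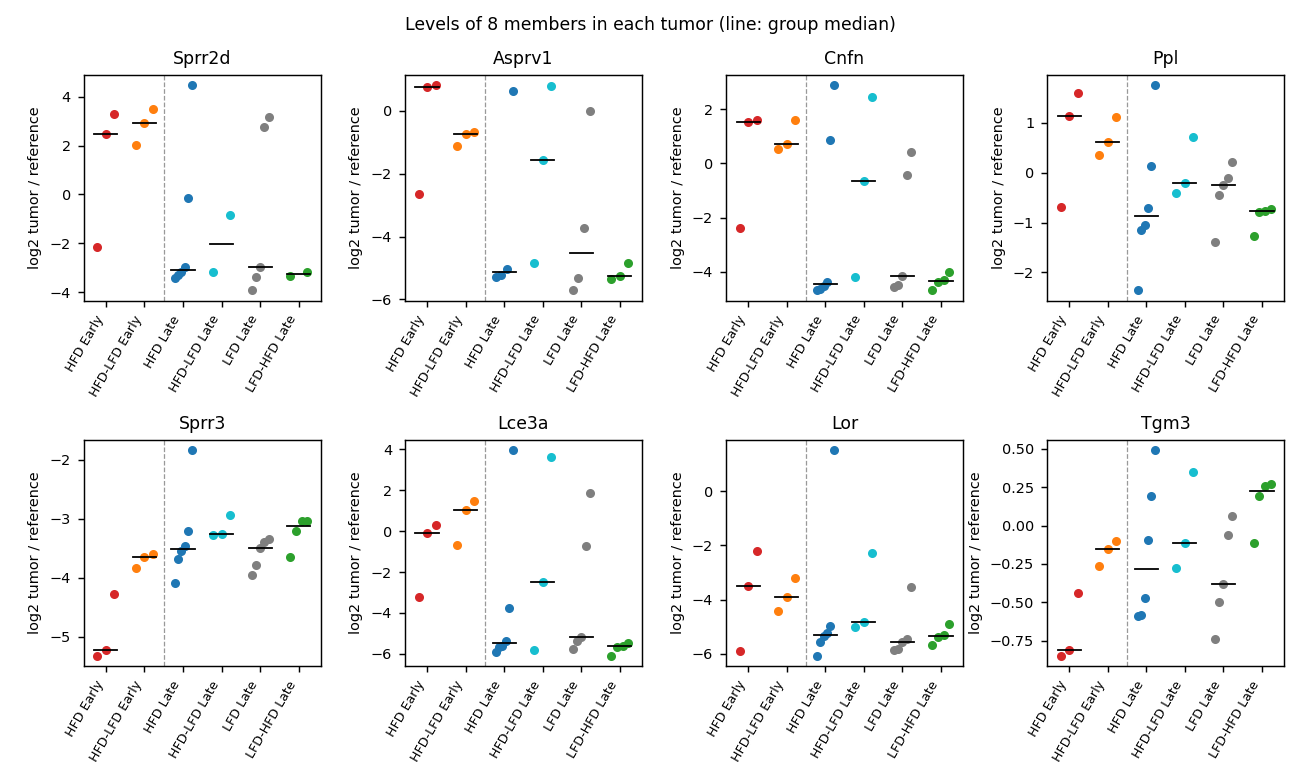
Log2 ratios of tumor to reference are plotted for 8 members in each tumor of the 6 diet and onset groups, with a line at the group median and a dashed line between early and late groups. For Sprr2d, Asprv1, Cnfn and Lce3a most late tumors are low and a few reach or pass the early ones, and for Sprr3 the early HFD tumors are lowest.

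These calls rested on few tumors. With 1 tumor left out at a time, 0 to 23 members were called: 23 without MSU_86, 12 without MSU_137 (24.5% against 21.7% of all genes), 10 without MSU_59b (20.4% against 17.9%) and 8 without the early tumor MSU_163 (16.3% against 13.5%). Each of these tumors stood out by its values of these same members, so leaving it out favors their calls. There were 0 members called without the early tumor MSU_768 (against 9.85%) and 1, Sprr3, without the early tumors MSU_97, MSU_51 or MSU_62b or the late tumors MSU_45, MSU_67 or MSU_84 (against 11.9% to 16.7%). Without the early tumor MSU_54, or the late tumors MSU_105, MSU_34, MSU_24, MSU_42, MSU_58, MSU_59a or MSU_62a, 2 were called (against 15.5% to 17.2%), and without MSU_122a or MSU_93, 3 (against 17.7% and 17.4%). Sprr3 kept its call in 23 of 24 such fits. The median difference over members was 1.58 without MSU_86, 1.56 without MSU_163 and 1.16 without MSU_768. Slide could not be fully separated from onset, since the 3 early HFD tumors filled their own slide and the 3 early HFD-LFD tumors shared theirs with 1 late tumor. With slide as a random block 1 member, Sprr3, was called (adjusted p = 0.0488), against 8.11% of all genes. With slide as a fixed block the estimate rested on the 1 slide that held both onsets, with 3 early tumors against the single late tumor MSU_45, and 0 of 49 members were called against 0.373% of all genes. Within scan session 1, 1 member was called (Sprr3) against 7.32% of all genes, and within session 2, with 3 early HFD-LFD tumors against 3 late ones, 25 (51.0%) against 11.8%. Session 2 held none of the late tumors with high members, MSU_86, MSU_59b and MSU_137, nor the low early tumor MSU_163. Its share is thus no test of the members. The part of slide and session in the result was not tested. Under centring of each array on its median, in place of loess, 18 members (36.7%) were called against 24.6% of all genes. That scaling moved the median difference of all genes from -0.059 to 0.21, and the share of called genes that were higher in early tumors from 38.6% to 81.3%. The member median was then 1.66. With array weights, which count arrays that depart from their group less, 40 members (81.6%) were called against 31.9% of all genes. MSU_86 departed from its group by high values of these same members. Array weights can therefore favor their calls, and this share is no test of the members.

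**Figure D4:**
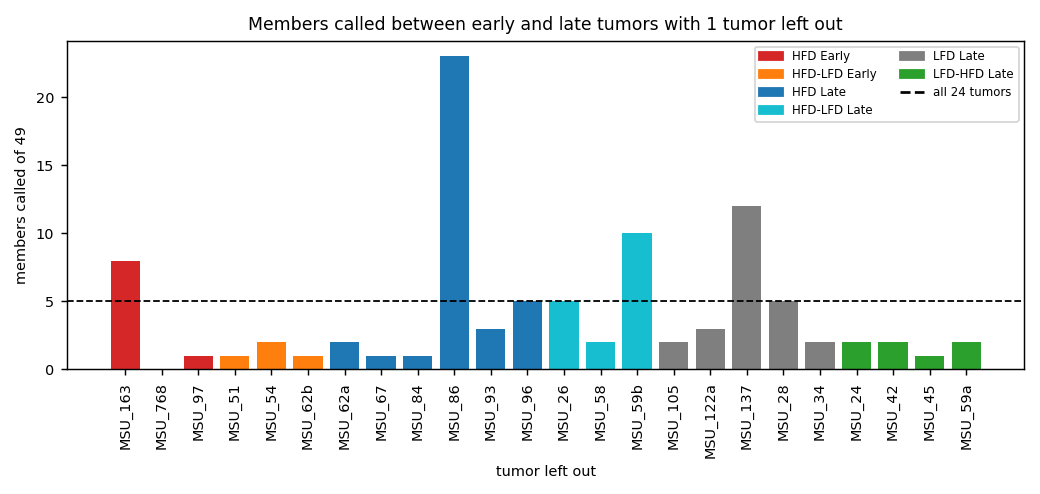
Bars give the number of 49 members called between early and late tumors when the tumor on the x axis is left out, colored by its group, and the dashed line is the 5 called with all 24. Leaving out MSU_86 gives 23 and leaving out MSU_768 gives 0.

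Of the 15 small proline-rich genes 9 were tested, 2 were called, Sprr2d and Sprr3, and 4 had an unadjusted p under 0.05, these and Sprr1a and Sprr2h. Counts by role, here and below, stand beside 17.7% of all genes called and 33.7% at that unadjusted threshold. Sprr1a differed by 2.33 (SE 0.90, adjusted p = 0.0709) and Sprr1b by 2.59 (SE 1.41, adjusted p = 0.196). Sprr1b was between -0.13 and 1.02 in the early tumors, and in late tumors it ran from -5.17 over a median of -3.75 to 6.58, so that 13 late tumors were below all early ones while MSU_86 was far above them. Sprr2h differed by 2.36 (SE 0.93), Sprr2g by 0.012 (SE 0.74), Sprr4 by -0.17 (SE 0.62) and Sprr2f by -0.52 (SE 0.80), none of them called. The Sprr2 family ran from -0.52 to 3.57 over 5 tested genes. Sprr2a2 had a pair of probes that disagreed, 0.11 for the brighter, which stood for the gene, and 1.68 for the other. Sprr2 genes are near-identical copies, so a probe may take signal from its relatives and the values of single Sprr2 genes are uncertain. Sprr2a1, Sprr2b, Sprr2e, Sprr2i, Sprr2j-ps and Sprr2k were not tested, because their background-subtracted signal passed the minimum of 10 in the tumor channel on 3 to 17 of 24 arrays only, and on 0 to 24 in the reference.

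The late cornified envelope genes, which code for small proteins of the outer envelope, were all tested, and 0 of 17 were called by limma, with 4 at an unadjusted p under 0.05. Those 4 were the Lce3 genes. Lce3a, Lce3b, Lce3c and Lce3f differed by 2.26 to 3.42 log2 units with a median of 2.73, SEs of 0.94 to 1.39 and adjusted p-values of 0.0857 to 0.127. Lce3a was -3.21, -0.09 and 0.29 in early HFD tumors and 1.47, -0.66 and 1.02 in early HFD-LFD tumors, and it ran from -6.09 over a median of -5.42 to 3.97 in 18 late tumors. Of the late tumors, 13 were below all early ones and 3 above the early median. The 13 Lce1 genes differed by -0.41 to 1.88 with a median of 0.94, and 0 had an unadjusted p under 0.05. Lce1k had the highest of these differences and Lce1m, the one Lce1 gene below 0, the lowest (SE 0.49, adjusted p = 0.590). Whether the Lce3 and Lce1 families differed in response was not tested. Without MSU_86, all 4 Lce3 genes passed the threshold, as did Lce1b and Lce1k. MSU_86 was the highest tumor for all 17 late cornified envelope genes, so leaving it out favors such calls. Lce genes too are close copies and may share signal.

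Of the other envelope proteins, Ivl, involucrin, differed by 1.29 (SE 0.60, adjusted p = 0.135) and Evpl, envoplakin, by 0.98 (SE 0.45, adjusted p = 0.128). Lor, loricrin, the main reinforcing protein, differed by 0.88 (SE 0.76, adjusted p = 0.426). It was -5.91, -3.50 and -2.21 in early HFD tumors and -3.20, -4.43 and -3.91 in early HFD-LFD tumors, and the late tumors ran from -6.08 over a median of -5.33 to 1.53. The tumor at 1.53 was MSU_86, 3.74 log2 units above the next tumor. On that array the reference signal of Lor was also lower, 15.46 against a median of 17.56 on the quantile-scaled log2 scale, so this ratio holds a change in both channels. Other members shifted there too, in both directions. The reference signal of MSU_86 was the lowest of all arrays for Calm4 (14.15, median 15.10) and the highest for Sprr2d (11.63, median 9.82). Ratios and leads of MSU_86 can thus hold a reference change. The filaggrin type proteins Flg, filaggrin, Flg2 and Hrnr, hornerin, differed by 2.34 (SE 1.30), 1.31 (SE 0.79) and 0.21 (SE 0.72), with 0 of 3 called and 0 at an unadjusted p under 0.05. Flg was -7.23 in MSU_163 and between -2.40 and -0.46 in the other early tumors, and in 14 late tumors it ran from -7.19 over a median of -5.78 to 2.23.

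The transglutaminases, which cross-link the envelope, were split: Tgm5 differed by 1.60 (SE 0.76, adjusted p = 0.139), Tgm1 by 0.79 (SE 0.39, adjusted p = 0.164) and Tgm3 by -0.32 (SE 0.17, adjusted p = 0.179), and 0 of 3 were called. All 6 early tumors were below the median of late tumors for Tgm3, but the sign turned with median centring, to 0.082. The corneodesmosome proteins, which hold cornified cells together, were represented by Dsg1a, a desmosomal cadherin, with a difference of 1.90 (SE 0.87, adjusted p = 0.127), and Cdsn, corneodesmosin, with 1.65 (SE 0.98, adjusted p = 0.242). Dsc1, another desmosomal cadherin, was not tested, since its tumor signal passed the minimum on 15 of 21 arrays. Cdsn was between -1.71 and -0.42 in early tumors, and 13 of 17 late tumors were below all of these, with MSU_86 at 3.82. In late tumors Dsg1a stood well above background on 12 of 18 arrays, as did Sprr1b and Klk7, and the low late values of these 3 are less certain. The called member Sprr3 stood well above background in 5 of 6 early tumors.

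Of the proteases other than Asprv1, Casp14, which acts in filaggrin breakdown, differed by 1.38 (SE 0.63, adjusted p = 0.124). Klk5 and Klk7, kallikreins that cleave corneodesmosomes, differed by 0.89 (SE 0.87) and 0.89 (SE 0.67). Of the lipoxygenases of the lipid envelope, Aloxe3 differed by 0.51 (SE 0.56) and Alox12b by 0.25 (SE 0.55), and a dimmer probe of Alox12b gave -0.14. MSU_86 led the next tumor by 2.42 for Aloxe3 and by 3.22 for Alox12b, which had no value in MSU_59b. The secreted and calcium-binding members all passed an unadjusted p of 0.05 and 0 of 4 were called: Calm4, a calmodulin-like protein of differentiating keratinocytes, differed by 2.89 (SE 1.12, adjusted p = 0.0746), Krtdap by 2.29 (SE 0.91, adjusted p = 0.0786), Dmkn, dermokine, by 2.11 (SE 0.92, adjusted p = 0.109) and Sbsn, suprabasin, by 1.82 (SE 0.75, adjusted p = 0.0910). The difference of Calm4 leaves out MSU_59b, where it had no value, and those of the others include it.

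The lead of MSU_86 was not even across roles. Over the next highest tumor it had a median of 2.82 log2 units for the lipoxygenases, 2.81 for the corneodesmosome proteins, 2.00 for the filaggrin type and 1.69 for the late cornified envelope genes, but 0.15 for the transglutaminases and 0.048 for the proteases. Its widest leads were 3.78 for Lce1m and 3.74 for Lor, and for Cnfn and Ppl, both called by onset, it led by 0.45 and 0.17. The lipoxygenase and corneodesmosome medians rest on 2 members each. MSU_59b, often the next tumor, had values for 39 of 49 members, so some leads are over another tumor. The lead was over MSU_51 for Alox12b and over MSU_59b for Aloxe3. Whether the lead differed between roles was not tested. Of all members, 37 had their probe on chromosome 3, between positions 91884206 and 93127679 of mm9, where the epidermal differentiation genes are clustered. Of the 31 tested there, 2 were called and the median difference was 1.06, and of the 18 tested elsewhere 3 were called and the median was 1.49. The share called over all genes was 17.7%.

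Within continuous HFD, 3 early against 6 late tumors, 1 of 49 members was called (2.04% against 13.1% of all genes), and 4 had an unadjusted p under 0.05, against 30.1% of all genes. The called member was Sprr3, lower in early tumors (difference -1.64 log2 units, SE 0.33, adjusted p = 0.0044 by limma). Its early HFD ratios lay between -5.32 and -4.28 and its late HFD ratios between -4.08 and -1.84. The others at an unadjusted p under 0.05 were Asprv1, at 3.38 (SE 1.57), Lce1m, at -1.49 (SE 0.70), and Tgm3, at -0.52 (SE 0.22). Asprv1 had no value in the late HFD tumors MSU_93 and MSU_96, so its late arm was smaller, here and without MSU_86. Without MSU_86, 4 members (8.16% against 11.2% of all genes) were called: Asprv1, Lce1m, Ppl and Sprr3. The median difference over members was 0.73 (median SE 1.22) against -0.085 over all genes.

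Within HFD-LFD, 3 early against 3 late tumors, 0 of 49 members were called by limma, against 0.836% of all genes, and 1 (Sprr2a2) had an unadjusted p under 0.05, against 15.5% of all genes. The median difference was 0.66 with a median SE of 1.38. The values of Sprr2d, Lce3f, Lce3b and Calm4 were missing in MSU_59b, the late HFD-LFD tumor with the highest members, so their late arm held 2 tumors. Their differences, 4.84 (SE 2.39, adjusted p = 0.340) for Sprr2d and 3.33 to 3.68 for the others, are not comparable with those of members measured in all 6. Sprr3 lay between -3.83 and -3.59 in the early and between -3.28 and -2.94 in the late tumors, with a difference of -0.54 (SE 0.38, adjusted p = 0.522 by limma). Whether the early-late difference was unlike in HFD and HFD-LFD was tested as a contrast of its own, and 0 of 49 members and 0% of all genes were called, with 1 member, Sprr3, at an unadjusted p under 0.05 (-1.1, SE 0.50, adjusted p = 0.605), against 8.12% of all genes.

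Diet without regard to onset gave no member. Between 9 HFD and 5 LFD tumors, 0 of 49 were called by limma, against 0% of all genes, and 0 had an unadjusted p under 0.05, against 4.52% of all genes. The median difference over members was 0.34 with a median SE of 1.05, and the highest was 1.67. Of the 49 members 44 were above 0, against 47.6% of all genes, and members that move together are not independent. Among the late tumors of the 4 diets, the moderated F-test of limma called 0 of 49 members against 2.08% of all genes, and 2 members, Sprr1a and Klk7, had an unadjusted p under 0.05 (adjusted p = 0.232 and 0.236), against 20.4% of all genes. For both, the LFD-HFD tumors were low: Sprr1a lay between -3.26 and -2.19 in these 4 and had medians of 0.22, 0.90 and 0.54 in late HFD, HFD-LFD and LFD tumors, and Klk7 lay between -2.89 and -2.42 against medians of -1.20, 0.20 and -1.06. Each of those other groups held tumors from below -1 to above 0 for both genes. Without MSU_86, 1 member, Lce1m, was called among the late diets, the member for which that tumor had its widest lead.

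Other genes of epidermal differentiation were counted between early and late tumors from written lists. Over all genes, 6.84% were called higher and 10.9% lower in early tumors, and 33.7% had an unadjusted p under 0.05. The lists are short, and whether their shares differed from these was not tested. Among the regulators, Grhl3 (2.60, SE 0.78) and Klf4 (2.13, SE 0.63), both transcription factors of the barrier, were higher in early tumors, and Gata3 (-2.15, SE 0.32), which is also on the luminal list below, was lower. Higher also were 1 of 11 lipid barrier genes, Cyp4f39 (1.53, SE 0.48), 1 of 14 other envelope and desmosome genes, Scel, sciellin (3.29, SE 0.98), and 1 of 10 proteases and inhibitors, Klk8 (2.60, SE 0.90). Of 12 epidermal keratins 0 were called, with 3 at an unadjusted p under 0.05, and of 5 S100 genes 0 were called, with 2 at that threshold. The means of the keratin list ran from -0.86 to 1.41 in early tumors and from -1.76 to 3.93 in late tumors, each gene taken relative to its own mean, and were highest in MSU_86, as were those of the regulators and the lipid barrier genes.

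Markers of other cell types also differed between the tumors. The shares over all genes were again 6.84% called higher, 10.9% called lower and 33.7% at an unadjusted p under 0.05. Of 11 luminal markers tested, 6 were lower in early tumors, Prlr (-3.94, SE 0.87), Foxa1 (-3.26, SE 1.1), Krt19, Gata3, Areg and Esr1, and 0 were higher. The luminal list mean, each gene relative to its own mean, ran from -2.17 to 0.41 in early and from -3.26 to 1.83 in late tumors. It was lowest in MSU_86, where the luminal keratins Krt8 and Krt18 had ratios of -4.74 and -4.10, and it was 0.41 in MSU_163, the early tumor with low members. Of 14 hair follicle keratins, 2 were higher in early tumors, Krt31 (2.06, SE 0.72) and Krt72 (1.56, SE 0.53), and the list mean ran from -1.76 to 3.66 in early and from -1.92 to 3.60 in late tumors. It was 2.50 in MSU_86, and it was also high in MSU_163, at 2.03, where members were low. Of 5 sebaceous gland genes 0 were called (1 at an unadjusted p under 0.05), and their mean was -0.44 to 0.14 in early and -0.32 to 2.09 in late tumors, highest in MSU_86. In that tumor Awat1 was at 4.73 and Elovl3 at 4.42. Mc5r at 0.17, Scd3 at 1.03 and Plin5 at -4.10 lay there within the range of the other tumors. Of 4 melanocyte genes 2 were lower in early tumors, Tyr and Pmel, and the highest list mean, 1.78, was again in MSU_86. Of 7 myoepithelial genes 1 was lower, Myh11 (-2.88, SE 0.68), and 0 were higher. This list was divided: Acta2, Cnn1, Mylk and Oxtr also lay below 0, but Krt14 (1.18, SE 0.65) and Krt5 (0.45, SE 0.45) lay above. Krt5 and Krt14 are also on the list of epidermal keratins. Of the adipocyte, skeletal muscle, macrophage, T cell and endothelial lists 0 genes were called by limma, and at an unadjusted p under 0.05 there were 3 T cell genes and 1 endothelial gene. The part of these cell types in the members' differences was not tested.

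**Figure D5:**
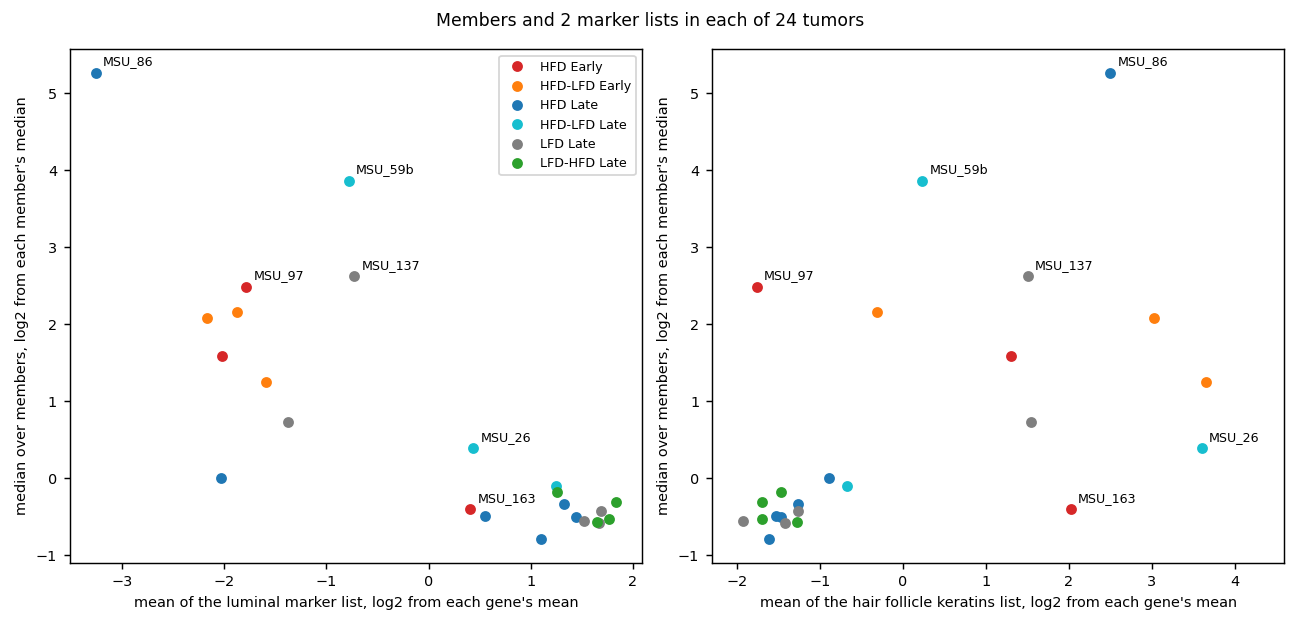
Each point is 1 of 24 tumors, with the median over members (log2 units from each member's median) on the y axis and, on the x axis, the mean of the luminal list on the left and of the hair follicle keratins on the right (log2 units from each gene's mean). MSU_86 lies at the top with the lowest luminal mean, -3.26, and MSU_163 has high hair follicle keratins, 2.03, with members at -0.40.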

How the data were processed

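The authors hybridised total RNA of each tumor with a common reference on 2-color arrays. As deposited, the intensity values are the mean brightness of each spot and the median brightness of its local background, not normalized, with a background-subtracted intensity beside them. The log10 ratios deposited with them had been corrected and normalized for dye by the scanner software, and served as an alternative. The submitters' processing notes name Agilent Feature Extraction 8.5.1.1.

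Here limma 3.58.1 (R 4.3.3) was used. Normexp with an offset of 50 removed background, flagged spots and dimmed rows were set missing, ratios were normalized by loess within arrays, and spots of a probe were averaged. A probe was kept (27272 of 39429) if tumor and reference signals, less background, exceeded 10 on 80% or more of the arrays that measured it, and the brightest probe stood for each gene. Dimmed rows were bands of 10 rows whose log2 Cy5 to Cy3 ratio lay more than 0.5 below the array's median. They were first found from normexp signals with the offset, and then from background-subtracted signals. The change was made after the first counts had been seen, and it moved the members called from 4 to 5.

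Early against late used 24 arrays, HFD against LFD 14, and the other comparisons contrasts of 6 group means, with Benjamini-Hochberg adjustment over 20936 genes. Members and lists were chosen with earlier results of these data known. Members named are those called, the extremes of each role and a written list. The fits were tested on simulated data. Alternatives were other handling of dimmed rows and flagged spots, filters, background, scaling, probe rules, array weights, slide and session blocks, and each array left out. The number of arrays limits the precision. Histology of single tumors was not analysed here. The list of regulators is not reported in full here.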

Additional observations from a re-analysis of the deposited data

Results flagged for a closer look

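A single tumor lay far from the others of its diet and onset group in 24 of 76 checks, each of which took the gap from the highest or lowest tumor to its nearest neighbour as a share of the group's range. Chance flags about 1 in 20 such groups, and members that move together are not independent checks. The late HFD tumor MSU_86 accounted for 18 of them, all as the highest tumor, for Alox12b (0.914), Aloxe3 (0.93), Asprv1 (0.957), Calm4 (0.704), Casp14 (0.847), Cdsn (0.824), Dsg1a (0.763), Flg (0.851), Hrnr (0.92), Ivl (0.638), Klk5 (0.854), Klk7 (0.671), Krtdap (0.681), Lce1m (0.877), Lce3a (0.782), Lor (0.856), Sprr1b (0.86) and the median over members (0.87). The late LFD tumor MSU_137 accounted for 5, again as the highest, for Casp14 (0.83), Flg (0.89), Hrnr (0.804), Ivl (0.803), Lor (0.826). The late LFD-HFD tumor MSU_24 was the 1 other, for Ppl (0.884). No cause of these gaps was tested.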

How the results depend on the processing

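Members called between early and late tumors numbered 5 (10.2% against 17.7% of all genes). There were 2 with dimmed rows kept (4.08% against 11.5%), 2 with no signal filter (3.57% against 12.6%) and 3 with the tumor channel alone (6.12% against 12.9%). Median centring gave 18 (36.7% against 24.6%) and array weights 40 (81.6% against 31.9%). MSU_86 departs from its group by these same members, so counts with array weights, here and below, are no test of them. Slide as a random block gave 1 (2.04% against 8.11%). Slide as a fixed block rests on 1 late tumor and says nothing about stability. Scan session 1 alone gave 1 (2.04% against 7.32%) and session 2 alone 25 (51.0% against 11.8%). Session 2 lacks the late tumors with high members and the low early tumor MSU_163, so its share is no test of the members. An unadjusted p under 0.05 gave 20 (40.8% against 33.7%). Within HFD the count of 1 became 2 with median centring (4.08% against 15.7%), 30 with array weights (61.2% against 39.6% of all genes) and 4 by an unadjusted p (8.16% against 30.1%). Within HFD-LFD the count of 0 became 2 with array weights and 1 unadjusted (against 15.5% of all genes). For the difference between these changes it became 1 unadjusted (against 8.12%). Among the late diets it became 1 with array weights and 2 unadjusted (against 20.4%). Over the fits that left out 1 array, the counts ran from 0 to 23 for early against late, from 1 to 4 within HFD, from 0 to 1 among the late diets, and stayed at 0 for the rest. Under the definition of dimmed rows tried first, 4 members were called and the one used was chosen after seeing the data. With flagged spots kept, also tried after seeing the data, 5 were called. The sign turned for Tgm3 with median centring (0.082), for Lce1m with slide as a fixed block (0.051) and within session 2 (0.044), within session 1 for Alox12b (-0.34), Aloxe3 (-0.30) and Hrnr (-0.78), and for Hrnr without MSU_51 (-0.079) or MSU_97 (-0.022), which ranged up to 0.75 over the arrays left out. The cause was not tested. Slide as a fixed block could be fitted for early against late and for HFD against LFD alone. No paired analysis was possible because the labels pair no tumors, and replicate numbers only name them. Members that the filter removed were dim in the tumor or reference channel, and wide errors limit what 6 early tumors can show.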
